A study of Mus musculus with 16 samples.

Results

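The Rab GTPases are the largest branch of the Ras-like small GTPases, and the 59 genes described here are all those in the deposited gene counts whose symbol is Rab followed by a number and at most 1 letter, out of 48709 genes in all. RNA was measured in the cerebral cortex of C57BL/6 mice. Synaptosomes (SYN), isolated nerve endings that reseal after the tissue is broken up and often keep a piece of the facing postsynaptic membrane, came from mice aged 3 weeks, 5 months and 19 months. Total homogenate (TH), kept before the synaptosomes were enriched, came from mice aged 5 months. Each of these 4 groups held 4 biological replicates, and no group carried a transgene or a treatment in the labels. Libraries were made from rRNA-depleted total RNA, and the 16 libraries were compared as SYN against TH at 5 months and as the 3 ages of SYN against each other.

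A Rab protein works as a switch on a membrane. With GTP bound it recruits effectors such as motors, tethers and scaffold proteins, and with GDP bound it is extracted from the membrane by a chaperone. Exchange factors load GTP, GTPase-activating proteins speed its hydrolysis, and a prenyl group added to cysteines at the carboxyl end, with the help of an escort protein, anchors the protein. Each Rab marks its own compartment, and in nerve terminals Rab3 and Rab27 proteins act on synaptic and secretory vesicles, while Rab5, Rab4 and Rab11 proteins act on endosomes through which vesicle and receptor proteins pass. The genes were grouped by textbook compartment into 8 of regulated secretion, 8 of the early endosome, 12 of recycling and transport to the plasma membrane, 11 of late endosomes and lysosomes, 14 of the endoplasmic reticulum and Golgi, and 6 of the cilium and other sites. Several of these proteins act at more than 1 compartment, and each was placed in a single group.

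The family is a set of close paralogues, so the ends of the coding sequences are shown for the Rab3 genes and for the Rab6 and Rab11 pairs, whose members moved apart below. Each line gives the last 45 coding bases with the stop codon, 5′ to 3′ on the coding strand, from GENCODE vM21 on build GRCm38. Capitals mark the codons of the cysteines that carry the prenyl groups.
Rab3a (chr8:70758044-70758088, plus strand): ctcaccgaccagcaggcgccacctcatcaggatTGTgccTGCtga
Rab3b (chr4:108940769-108940813, plus strand): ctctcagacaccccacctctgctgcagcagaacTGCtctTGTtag
Rab3c (chr13:110061815-110061859, minus strand): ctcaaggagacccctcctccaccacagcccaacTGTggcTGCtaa
Rab3d (chr9:21910484-21910528, minus strand): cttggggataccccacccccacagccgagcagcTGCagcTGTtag
Rab6a (chr7:100639275-100639319, plus strand): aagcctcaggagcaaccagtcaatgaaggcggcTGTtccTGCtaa
Rab6b (chr9:103181202-103181246, plus strand): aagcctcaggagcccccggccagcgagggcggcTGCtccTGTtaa
Rab11a (chr9:64716849-64716893, minus strand): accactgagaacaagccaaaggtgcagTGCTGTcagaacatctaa
Rab11b (chr17:33747668-33747712, minus strand): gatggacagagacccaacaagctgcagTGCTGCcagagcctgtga
All 8 stretches lie within a single exon. The Rab3 and Rab6 genes end in cysteine, another residue, cysteine, and the Rab11 genes carry adjacent cysteines before 3 further codons. Over the whole coding sequence Rab6b and Rab6a were identical at 78.5% of aligned bases, and Rab11b and Rab11a at 75%. Rab3a was identical to Rab3b at 75.7%, to Rab3d at 74.8% and to Rab3c at 73.2%. The longest identical run was 14 bases in both the Rab6 and Rab11 pairs and 29 bases between Rab3a and Rab3d. Over all 59 genes, 20 ended in cysteine, residue, cysteine, 15 in adjacent cysteines, 15 in adjacent cysteines before 1 to 3 further residues, and 9 in a single cysteine before 3 residues.

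The libraries held 10.6 to 21.7 megacounts, of which 21558 to 60627 counts lay on Rab genes, and 53 to 58 Rab genes had at least 1 count in a library. The mitochondrial rRNAs took 17.6% to 22% of the counts in TH and 32.9% to 52.3% in SYN, so all levels below are CPM, each library's counts scaled to the same total, with TMM factors that set the libraries level over most genes. In all, 52 of the 59 genes had enough counts to be tested in each comparison. The 7 others, Rab17, Rab19, Rab20, Rab25, Rab38, Rab42 and Rab44, had at most 17 counts in any library. In 5 months SYN replicate 4 the nuclear RNA Malat1 stood at 4796 CPM against 942 to 1449 in the other 3, and in 19 months SYN replicate 1 mitochondrial rRNA took 52.3% against 32.9% to 33.6%. Calls that turn on either of these libraries are given beside the result. The labels call the samples biological replicates without saying whether each was a single animal.

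Per kilobase of exon, the 5 highest genes made up 41.5% of the family's summed level in 5 months SYN. In 5 months SYN, Rab6b, a neuron-enriched Golgi and transport Rab, had the highest level, 73.3 ± 2.79 CPM per kb (mean ± SD, n = 4), with no library below 71.7. Rab3a, the main Rab of synaptic vesicles, followed at 49.4 ± 3.40 CPM per kb and Rab7, the Rab of late endosomes and lysosomes, at 45.3 ± 2.73, and the ranges of these 2 overlapped. Then came Rab6a at 33.9 ± 1.97, Rab15, an endosomal Rab, at 31.4 ± 2.12 and Rab2a, which acts between the endoplasmic reticulum and Golgi, at 29.9 ± 2.67 CPM per kb, and neighbours in this order also overlapped. In 5 months TH the order began with Rab3a at 63.4 ± 4.04 and Rab6b at 60.5 ± 2.00 CPM per kb, whose ranges overlapped. Rab6a at 40.6 ± 3.79 and Rab7 at 39.9 ± 2.49 came next. In 3 weeks SYN Rab6b stood at 88.3 ± 8.47 and Rab3a at 77.0 ± 3.79 CPM per kb, again with overlapping ranges, and in 19 months SYN Rab6b at 70.5 ± 5.92 and Rab3a at 47.6 ± 3.02 were apart. Rab6b and Rab3a together made up 21.8% of the family's summed CPM per kb in 5 months SYN, 25.4% in 3 weeks SYN and 23.1% in 5 months TH. The 10 highest genes made up 63.3% in 5 months SYN.

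**Figure D1:**
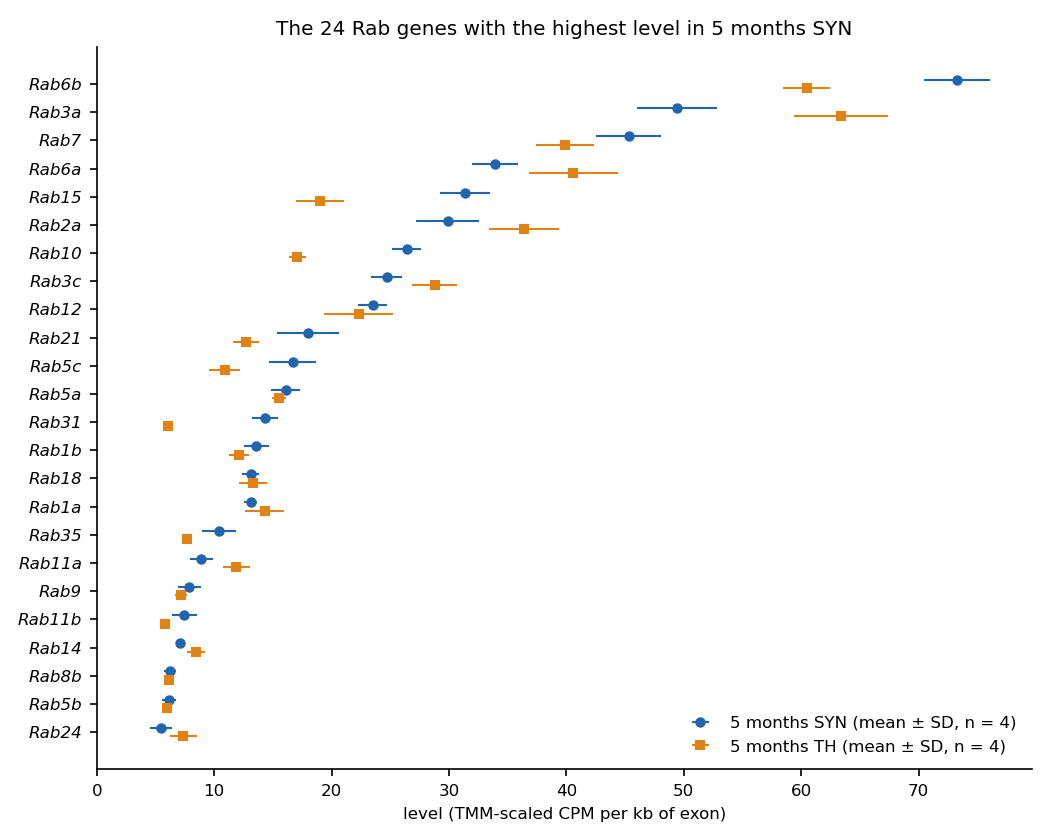
Level of the 24 Rab genes with the highest level in 5 months SYN, in TMM-scaled CPM per kb of exon (x axis), for 5 months SYN (circles) and 5 months TH (squares). Points are means and bars the SD of 4 libraries. Rab6b stands apart from the other genes in SYN at 73.3, while in TH Rab3a and Rab6b lie side by side at 63.4 and 60.5.

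At 5 months, 4 of 6 tested early endosome Rabs and 5 of 11 recycling Rabs were higher in synaptosomes than in homogenate, while 4 of 8 secretory vesicle Rabs were lower and none was higher. Of all 52 tested Rab genes, 20 were called (38.5%), against 50.1% of the 17374 genes tested (edgeR quasi-likelihood F test, Benjamini-Hochberg adjusted p under 0.05). Of the 52, 11 were higher in SYN (21.2%) and 9 lower (17.3%), against 24.5% higher and 25.6% lower over all genes. Without SYN replicate 2 or without TH replicate 2 the lower genes were 5, and without SYN replicate 4 they were 12, with Rab4b, Rab24 and Rab34 added. The family's median log2 fold change of -0.02 stood beside -0.05 for all genes. Single genes ran from -1.09 to 1.3. Upper-quartile scaling moved the median of all genes by -0.14 and changed the split to 9 higher and 15 lower Rab genes, and over all genes to 3367 higher and 5525 lower. In these bulk libraries, fewer particles or cells of a type and less RNA in each cannot be told apart.

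**Figure D2:**
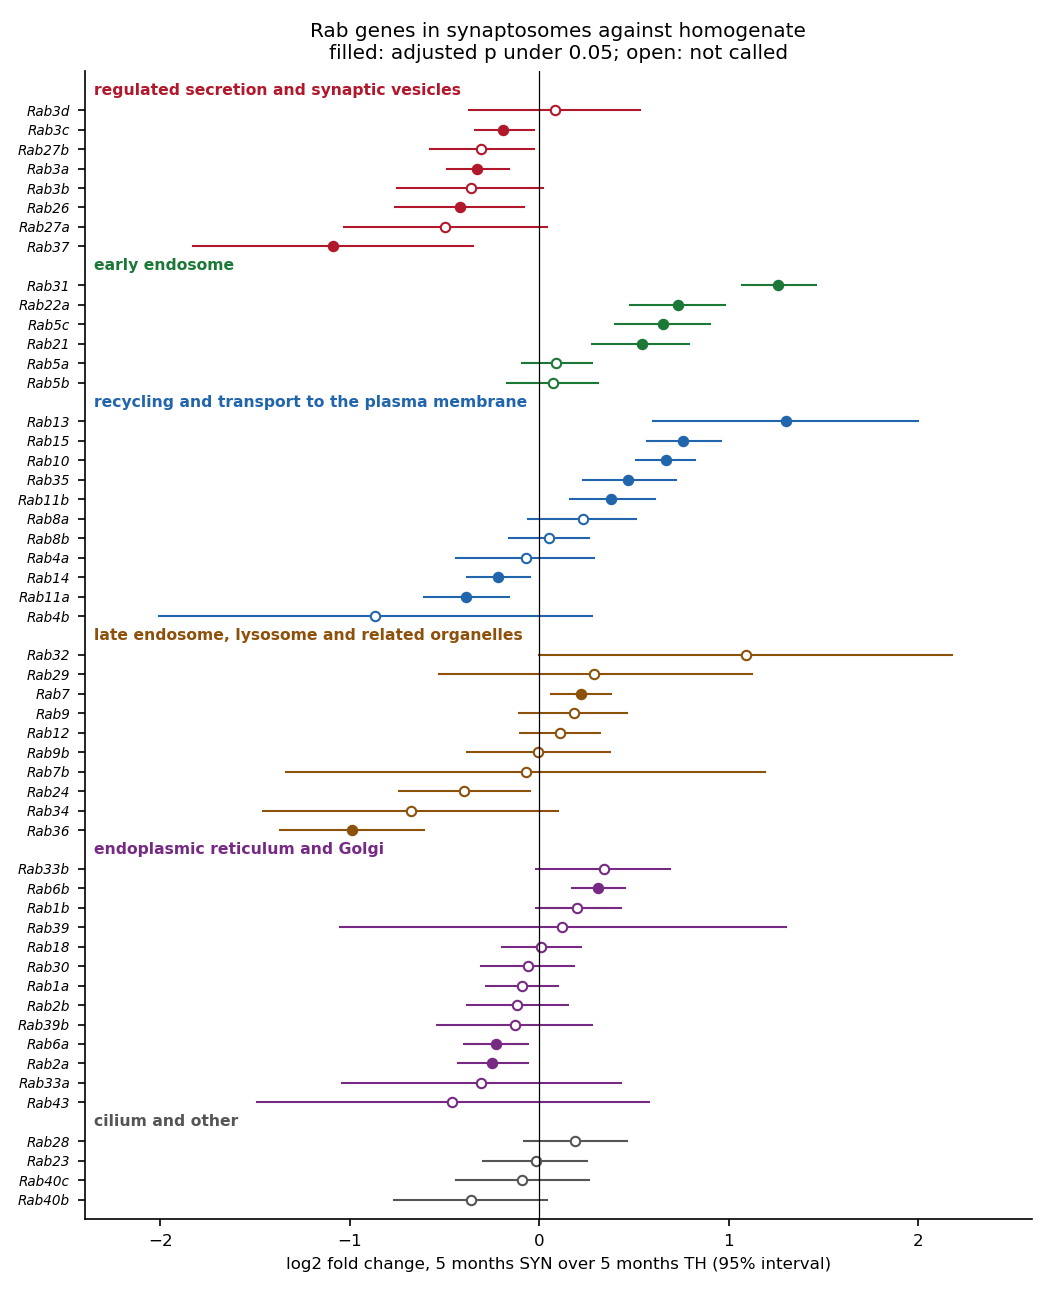
Log2 fold change of the 52 tested Rab genes in 5 months SYN over 5 months TH (x axis) with 95% intervals, grouped by compartment. Filled points have an adjusted p under 0.05 (11 higher, 9 lower) and open points were not called. All 6 early endosome genes lie right of 0, and 7 of the 8 secretory genes lie left of it.

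Among the 8 Rabs of regulated secretion, none was higher in SYN and 4 were lower (50%), with a median log2 fold change of -0.34. Over all genes 24.5% were higher and 25.6% lower, with a median of -0.05. Rab3a, which on synaptic vesicles binds effectors of the active zone, stood at 119, 112, 102 and 106 CPM in 5 months SYN replicates 1 to 4. In 5 months TH it stood at 136, 153, 142 and 133 CPM, so every TH library lay above every SYN library. The log2 fold change was -0.33 ± 0.08 (SE, adjusted p = 0.00254), and the call held in 17 of 17 alternative settings. For SYN against TH, the fit without SYN replicate 4 is counted more than once among these 17. Leaving out 19 months SYN replicate 1 as well does not alter it. Rab3c, a second vesicle Rab3, stood at 207, 209, 198 and 225 CPM in SYN and at 226, 243, 245 and 266 CPM in TH. Its groups were apart by little, its log2 fold change was -0.19 ± 0.07 (adjusted p = 0.0444), and the call was lost in 7 of 17 settings, among them without any single one of SYN replicates 1, 2 and 3 or TH replicates 2, 3 and 4. Rab3b stood at 10.5, 7.66, 14.1 and 8.27 CPM in SYN and at 12, 13.5, 13.6 and 14.2 CPM in TH. These groups overlapped in SYN replicate 3, and the difference of -0.36 ± 0.18 was not called (adjusted p = 0.106). Rab3d, the Rab3 of secretory granules, had 6.71, 5.28, 4.61 and 5.89 CPM in SYN and 5.80, 6.44, 5.51 and 4.07 CPM in TH. The 2 groups covered much the same range, with a 95% interval of the log2 difference from -0.37 to 0.53.

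Rab26, which links synaptic vesicles to autophagy, stood at 6.86, 8.25, 7.11 and 8.81 CPM in SYN and 11.7, 10.7, 11.2 and 9.01 CPM in TH. The log2 fold change was -0.42 ± 0.16 (adjusted p = 0.0398), but 8 of 17 settings lost the call, among them the block of replicates and leaving out any one of SYN replicates 1 to 3 or TH replicates 1 to 3. Rab26 shares 9.36% of its exon bases with Traf7 on the same strand. Rab27b, a Rab of exocytosis, had 21.1, 18.6, 15.4 and 15.8 CPM in SYN and 24.8, 23.7, 20.7 and 20.7 CPM in TH. The difference of -0.31 ± 0.13 missed the threshold (adjusted p = 0.0577), and 7 of 17 settings, the replicate block among them, called it. Rab37, a secretory granule Rab with few counts, had 1.09, 1.64, 2.99 and 1.31 CPM in SYN and 4.65, 4.29, 3.32 and 2.99 CPM in TH. Its log2 fold change was -1.09 ± 0.35 (adjusted p = 0.017), and the call was lost without TH replicate 1 (adjusted p = 0.0596). Rab27a, at 3.37 ± 0.90 CPM in SYN and 4.88 ± 0.82 in TH, was not called (adjusted p = 0.114).

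Of the 6 tested early endosome Rabs, 4 were higher in SYN (66.7%), none was lower and the median log2 fold change was 0.59. Over all genes 24.5% were higher and 25.6% lower, with a median of -0.05. Rab31, also called Rab22b, which acts between the trans-Golgi network and endosomes, showed the clearest difference of the family. It stood at 53.2, 45.8, 52.6 and 46.8 CPM in SYN replicates 1 to 4 and at 19.5, 21.1, 21.7 and 22.2 CPM in TH. No TH library came near the lowest SYN library, and the fit gave a log2 fold change of 1.26 ± 0.09 (adjusted p = 4.89e-08). Its close relative Rab22a stood at 38.4, 36.0, 36.9 and 39.1 CPM in SYN and at 21.3, 19.1, 24.2 and 28.5 CPM in TH. Here too the groups were apart, and the log2 fold change was 0.73 ± 0.12 (adjusted p = 1.20e-04).

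The Rab5 genes, whose products define the early endosome and drive its fusion, did not move as a unit. Rab5c stood at 40.6, 33.3, 40.3 and 32.4 CPM in SYN and 25.2, 19.6, 25.3 and 25.6 CPM in TH, a log2 fold change of 0.65 ± 0.12 (adjusted p = 3.14e-04). Rab5a stood at 41.6, 39.4, 35.5 and 35.8 CPM in SYN and 38.5, 35.2, 36.6 and 35.9 CPM in TH. Its groups overlapped, and the 95% interval of the log2 difference ran from -0.09 to 0.28 (adjusted p = 0.402). Rab5b, at 19.4 ± 1.81 CPM in SYN and 19.0 ± 1.10 in TH, was not called either. Rab21, which carries integrins through endosomes, was higher in SYN with 28.0, 30.1, 34.4 and 38.8 CPM against 24.6, 21.2, 21.7 and 25.4 CPM. Its log2 fold change was 0.54 ± 0.12 (adjusted p = 0.00157). The calls of Rab31, Rab22a, Rab5c and Rab21 each held in 17 of 17 settings.

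In the recycling and plasma membrane group, 5 of 11 tested genes were higher in SYN (45.5%) and 2 were lower (18.2%), with a median of 0.23. Over all genes 24.5% were higher and 25.6% lower, with a median of -0.05. Rab10, which delivers membrane for axon and dendrite growth, stood at 91.3, 99.0, 91.9 and 89.1 CPM in SYN and 59.4, 57.5, 59.3 and 63.3 CPM in TH. The groups were far apart, with a log2 fold change of 0.67 ± 0.07 (adjusted p = 2.58e-06). Rab15, a neuronal Rab of early and recycling endosomes, had 154, 134, 152 and 140 CPM in SYN and 93.7, 95.1, 86.7 and 74.5 CPM in TH. This was a log2 fold change of 0.76 ± 0.09 (adjusted p = 6.23e-06). Rab35, which acts in endosomal recycling and on synaptic vesicle protein turnover, had 33.4, 23.9, 31.2 and 28.8 CPM in SYN and 21.3, 22.4, 21.6 and 21.2 CPM in TH, a log2 fold change of 0.47 ± 0.11 (adjusted p = 0.00281). Rab13, which acts on cell junctions and neurite growth, had the largest fold change of the called members, 1.3 ± 0.33, but at a low level of 2.11, 4.76, 3.96 and 3.21 CPM in SYN and 1.31, 1.49, 1.60 and 1.41 CPM in TH (adjusted p = 0.00408).

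The Rab11 pair, the central Rabs of the recycling endosome, moved in opposite directions. Rab11a stood at 26.2, 29.8, 22.8 and 27.7 CPM in SYN and 35.3, 33.2, 33.8 and 40.7 CPM in TH, and the groups did not overlap (log2 fold change -0.39 ± 0.11, adjusted p = 0.00699). Rab11b, the paralogue enriched in brain, stood at 52.7, 47.4, 44.8 and 37.1 CPM in SYN and 32.8, 35.1, 36.1 and 38.9 CPM in TH. It was higher by 0.38 ± 0.11 (adjusted p = 0.00711), although SYN replicate 4 lay within the TH range, and upper-quartile scaling lost the call (adjusted p = 0.0649). Rab14, which acts between the Golgi and endosomes, was lower with 95.4, 95.7, 96.5 and 95.7 CPM in SYN against 113, 129, 105 and 109 CPM in TH. Its log2 fold change was -0.22 ± 0.08 (adjusted p = 0.0307), lost in 4 of 17 settings, each leaving out a library (SYN replicate 1 or 2, TH replicate 1 or 2). Rab4b, an endosomal recycling Rab with few counts, stood at 0.312, 1.12, 0.485 and 1.96 CPM in SYN and 1.97, 0.946, 1.87 and 2.66 CPM in TH and was not called (-0.87 ± 0.53, adjusted p = 0.196). Without SYN replicate 4, the library with high Malat1, Rab4b was called lower (-1.51, adjusted p = 0.0246). The Rab8 pair and Rab4a were not called, and Rab8b stood at 28.7, 26.5, 31.4 and 32.0 CPM in SYN and 30.4, 29.4, 28.9 and 28.9 CPM in TH.

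Fewer members of the other groups were called, where 24.5% of all genes were higher and 25.6% lower. In the late endosome and lysosome group 1 of 10 tested genes was higher and 1 lower. Rab36, which acts on lysosome position, was lower with 5.69, 6.47, 4.69 and 4.76 CPM in SYN against 8.81, 10.7, 11.4 and 13.0 CPM in TH (log2 fold change -0.99 ± 0.18, adjusted p = 3.07e-04). Rab7 was higher with 128, 119, 114 and 112 CPM in SYN against 110, 109, 101 and 96.3 CPM in TH, by 0.22 ± 0.08 (adjusted p = 0.0262). That call was lost in 7 of 17 settings, DESeq2 and upper-quartile scaling among them, and without SYN replicate 1, TH replicate 3 or TH replicate 4. In the endoplasmic reticulum and Golgi group 1 of 13 was higher and 2 were lower. Rab6b was higher at 390, 362, 361 and 361 CPM in SYN against 291, 304, 315 and 308 CPM in TH (0.31 ± 0.07, adjusted p = 0.00121). Its paralogue Rab6a, which drives retrograde transport to and through the Golgi, was lower at 135, 122, 119 and 129 CPM in SYN against 152, 139, 144 and 171 CPM in TH. The log2 fold change was -0.23 ± 0.08 (adjusted p = 0.0281), and it lost its call without SYN replicate 2 or 3 or TH replicate 1 or 4. Rab2a had 57.5, 71.0, 64.9 and 61.8 CPM in SYN and 69.6, 77.1, 78.4 and 85.1 CPM in TH. The groups overlapped slightly (-0.25 ± 0.09, adjusted p = 0.0272), and the call was lost without SYN replicate 1 or TH replicate 2, 3 or 4. None of the 4 tested cilium and other Rabs was called.

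The remaining members that were tested and not called spanned the range of levels. Of the late endosome group these were Rab7b, Rab9, Rab9b, Rab12, Rab24, Rab29, Rab32 and Rab34, of the Golgi group Rab1a, Rab1b, Rab2b, Rab18, Rab30, Rab33a, Rab33b, Rab39, Rab39b and Rab43, and of the last group Rab23, Rab28, Rab40b and Rab40c. Rab12, which acts on lysosomal breakdown of receptors, had the highest level of these in 5 months SYN, 71.1 CPM against 67.5 in TH, and Rab39 the lowest, 0.643 CPM against 0.596. Rab24, a Rab of autophagy, stood at 10.2 CPM in SYN and 13.8 in TH, and 9 of 17 settings called it lower, among them without SYN replicate 4 (-0.54, adjusted p = 0.0129). Rab34, a Rab of lysosome position and cilium formation, stood at 1.25, 1.26, 1.37 and 3.21 CPM in SYN and 2.35, 2.69, 3.36 and 3.43 CPM in TH. Only SYN replicate 4 lay within the TH range, and without it the log2 fold change went from -0.68 (adjusted p = 0.137) to -1.18 (adjusted p = 0.00689).

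**Figure D3:**
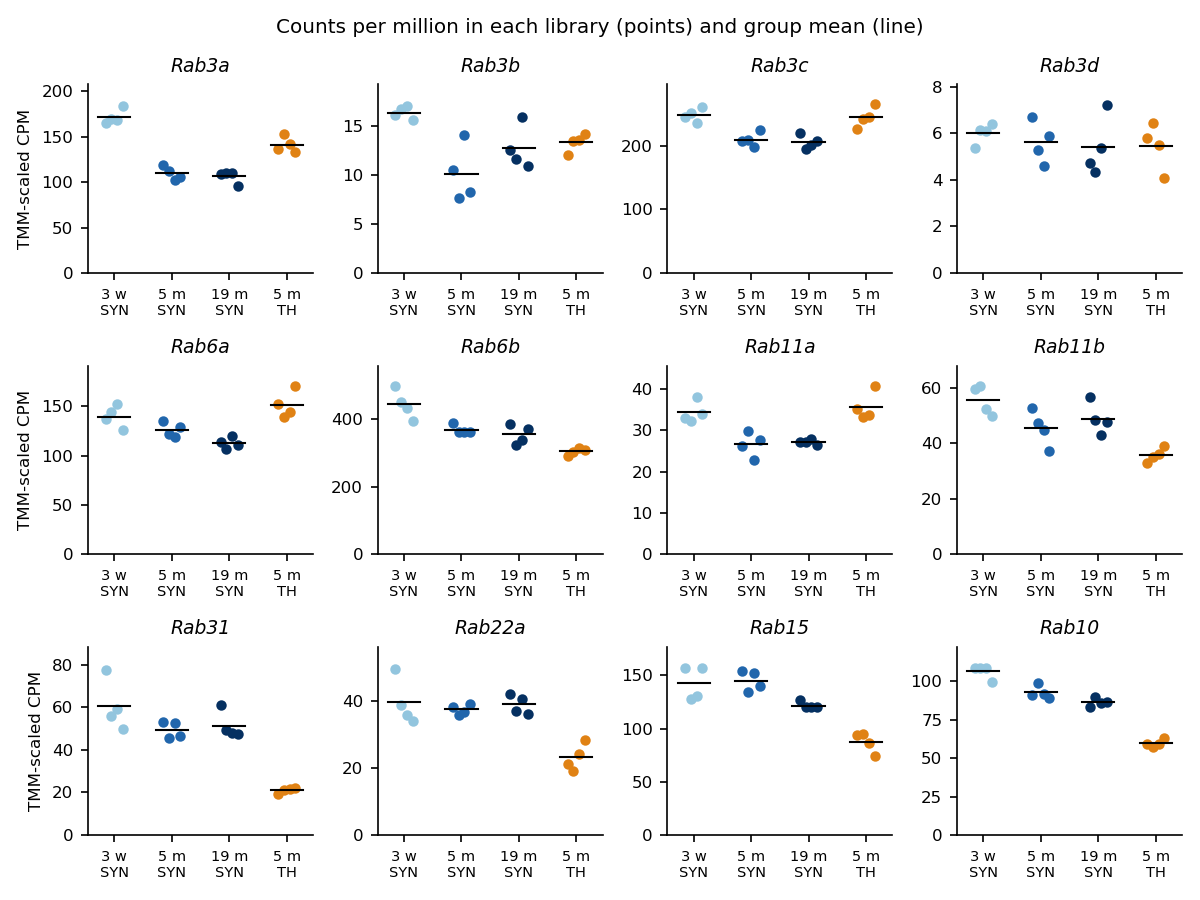
TMM-scaled CPM (y axis, from 0) of 12 Rab genes in each of the 16 libraries, by group. Points are libraries and lines are group means of 4. Rab31, Rab22a, Rab15 and Rab10 lie higher in all 4 libraries of 5 months SYN than in any of 5 months TH, Rab3a lies lower, and the paralogues Rab6a and Rab6b, and Rab11a and Rab11b, differ in opposite directions.

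The ratio of 2 paralogues within a library does not depend on the scaling. The Rab6b to Rab6a ratio of CPM ran from 2.79 to 3.04 in 5 months SYN and from 1.80 to 2.19 in TH. The Rab11b to Rab11a ratio ran from 1.34 to 2.01 in SYN and from 0.929 to 1.07 in TH, and the Rab5a to Rab5c ratio averaged 1.04 in SYN and 1.53 in TH, also without overlap. Each of these differences had p = 0.0286 in a two-sided exact permutation test, the smallest value that 4 against 4 libraries allow. Over the 18 paralogue pairs compared the adjusted p was 0.0857, so no ratio passed. Rab22a to Rab31, Rab3a to Rab3d and Rab1a to Rab1b reached the same p, with mean ratios of 0.759, 19.7 and 2.00 in SYN and 1.09, 26.2 and 2.44 in TH. Rab3a and Rab3c kept a ratio of 0.47 to 0.577 in SYN and 0.499 to 0.63 in TH, which overlapped.

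Markers of other cells also differed between the fractions. All 8 astrocyte markers were higher in SYN, with a summed level of 6552 to 7576 CPM against 2902 to 3485 in TH, and so were all 8 microglia markers, at 168 to 191 CPM against 76.1 to 78.9. Of the 8 oligodendrocyte markers 5 were higher, at 2288 to 2832 CPM against 1551 to 1736, and of the 8 oligodendrocyte precursor markers 7, at 321 to 365 CPM against 168 to 193. All 8 endothelial and mural markers were lower, at 24.6 to 60.8 CPM against 181 to 260. Of the 8 neuron markers 4 were higher and 2 lower, at 4609 to 5235 CPM against 3180 to 3562. No marker of these lists was at 0 in all libraries of a group, and their part in the differences of Rab31, Rab22a, Rab5c, Rab10, Rab15 and the other called Rabs was not tested.

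Between 3 weeks and 5 months, the Rab genes called in synaptosomes were all lower at 5 months. Of the 52 tested genes, none was higher at 5 months and 10 were lower (19.2%), against 13.3% higher and 11.3% lower, 24.6% together, over all 15344 genes tested in the edgeR fit of the 12 SYN libraries. An unadjusted p under 0.05 was reached by 18 of the 52 (34.6%) and by 35.9% of all genes, and DESeq2 also called 0 higher and 10 lower. Leaving out 1 library gave 7 to 10 lower genes (7 without 3 weeks replicate 3 or 5 months replicate 2). It gave 2 higher genes without 3 weeks replicate 1, and 1 without 3 weeks replicate 4 or 5 months replicate 1. The median log2 fold change was -0.13 for the family and 0.00 for all genes. Of the 52, 20 had a positive log2 fold change and 32 a negative one. Near the threshold but not called were Rab37 (1.07, edgeR adjusted p = 0.0689), Rab8b (0.29, 0.0734) and Rab12 (0.24, 0.0789). On the lower side these were Rab40b (-0.52, 0.0616) and Rab11b (-0.26, 0.0839). At 19 months against 3 weeks, 11 Rab genes were lower (21.2%) and 2 higher (3.85%), against 9.44% and 10% of all genes, 19.4% together, with a family median of -0.17. Leaving out 1 library moved the lower genes to 6 (without 19 months replicate 2) or 7 (without 3 weeks replicate 3 or 19 months replicate 3 or 4). The higher genes went to 0 without 3 weeks replicate 3 or 19 months replicate 4, and to 1 without 3 weeks replicate 2 or 4 or 19 months replicate 1 or 2. Both comparisons use the same 3 weeks libraries, and the first also shares the 5 months SYN libraries with the comparison against TH.

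Rab3a had the smallest adjusted p of the family in both age comparisons. It stood at 165, 169, 168 and 184 CPM in 3 weeks SYN replicates 1 to 4, at 119, 112, 102 and 106 CPM at 5 months, and at 109, 110, 110 and 95.9 CPM at 19 months. All 8 libraries of the later ages lay below all 4 of 3 weeks. The log2 fold change was -0.62 ± 0.09 at 5 months (adjusted p = 5.66e-06) and -0.68 ± 0.09 at 19 months (adjusted p = 1.61e-06), and both calls held in 18 of 18 settings. Rab3c stood at 246, 252, 236 and 261 CPM at 3 weeks, 207, 209, 198 and 225 CPM at 5 months and 221, 195, 202 and 207 CPM at 19 months. It fell by 0.22 ± 0.08 at 5 months (adjusted p = 0.0495) and by 0.25 ± 0.08 at 19 months (adjusted p = 0.0285) on the log2 scale. The first was lost in 11 of 18 settings, among them without any one of 3 weeks replicates 2, 3 and 4 and 5 months replicates 1, 2 and 3 (adjusted p up to 0.125). The second was lost without 3 weeks replicate 2 or 4 or 19 months replicate 2, 3 or 4 (adjusted p up to 0.0953). The ratio of Rab3a to Rab3c ran from 0.669 to 0.714 at 3 weeks, from 0.47 to 0.577 at 5 months and from 0.464 to 0.561 at 19 months. The exact permutation p was 0.0286 for each later age against 3 weeks, and adjusted over the 18 pairs it was 0.103.

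Rab3b stood at 16.1, 16.7, 17 and 15.6 CPM at 3 weeks and at 10.5, 7.66, 14.1 and 8.27 CPM at 5 months, a log2 fold change of -0.67 ± 0.17 (adjusted p = 0.00533). At 19 months it stood at 12.5, 11.6, 15.9 and 10.9 CPM, which was not called against 3 weeks (-0.35 ± 0.17, adjusted p = 0.166). Rab3d did not differ past the threshold at either age, with 5.39, 6.14, 6.11 and 6.40 CPM at 3 weeks and 4.71, 4.34, 5.39 and 7.21 CPM at 19 months. Rab27b stood at 13.8, 14.6, 17.4 and 16.7 CPM at 3 weeks and 11.5, 13.4, 11.9 and 19.7 CPM at 19 months and was not called. Rab37 rose, from 0.898, 1.05, 0.849 and 0.563 CPM at 3 weeks to 1.81, 2.62, 1.55 and 2.55 CPM at 19 months. This was a log2 fold change of 1.36 ± 0.43 (adjusted p = 0.0258), lost without any one of 3 weeks replicates 3 and 4 and 19 months replicates 2 and 4 (adjusted p up to 0.0824). Rab26 was called at neither age.

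In the endoplasmic reticulum and Golgi group 4 of 13 tested genes were lower at 5 months (30.8%) and 5 of 13 at 19 months (38.5%) against 3 weeks, with none higher, where 11.3% and 9.44% of all genes were lower. In the secretion group 3 of 8 were lower at 5 months (37.5%). At 19 months 2 were lower (25%) and 1 higher (12.5%), where 10% of all genes were higher. Rab1a, which with Rab1b controls traffic from the endoplasmic reticulum to the Golgi, stood at 65.5, 75.7, 79.3 and 60.6 CPM at 3 weeks, 49.2, 47.7, 52.5 and 49.7 CPM at 5 months, and 58.9, 51.7, 50.3 and 42.1 CPM at 19 months. Both later groups lay below the 3 weeks group, by -0.47 ± 0.11 (adjusted p = 0.00163) and -0.46 ± 0.11 (adjusted p = 0.00292). Rab1b stood at 32.8, 35.6, 32.8 and 34.1 CPM at 3 weeks and 25.3, 25.4, 26.8 and 22.2 CPM at 5 months (-0.42 ± 0.11, adjusted p = 0.00623). At 19 months, with 25.7, 33.2, 29.4 and 26.8 CPM, it overlapped the 3 weeks group and was not called (adjusted p = 0.181). Rab33a, a Golgi Rab at low level, stood at 5.39, 6.67, 6.00 and 4.92 CPM at 3 weeks, 2.50, 1.04, 3.64 and 3.09 CPM at 5 months, and 1.81, 2.69, 2.19 and 3.28 CPM at 19 months. Its log2 fold changes were -1.13 ± 0.29 (adjusted p = 0.00553) and -1.19 ± 0.30 (adjusted p = 0.00523).

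Rab6b stood at 498, 450, 432 and 395 CPM at 3 weeks, 390, 362, 361 and 361 CPM at 5 months, and 387, 323, 337 and 372 CPM at 19 months. The log2 fold changes were -0.24 ± 0.09 (adjusted p = 0.0438) and -0.31 ± 0.09 (adjusted p = 0.0135), and the first was lost in 10 of 18 settings, among them without any single library of 5 months and without 3 weeks replicates 1, 2 or 3 (adjusted p up to 0.106). The second was lost without 19 months replicate 2 or 3. Rab6a stood at 137, 144, 152 and 126 CPM at 3 weeks and 114, 107, 120 and 111 CPM at 19 months (-0.29 ± 0.09, adjusted p = 0.0173), a call lost without 3 weeks replicate 3 or 19 months replicate 2. It was not called at 5 months. Rab18, a Rab of the endoplasmic reticulum and lipid droplets, was lower at 19 months, with 29.1, 25.3, 28.3 and 26.8 CPM against 33.9, 36.8, 37.8 and 31.0 CPM at 3 weeks (-0.34 ± 0.11, adjusted p = 0.0269). That call was lost without 3 weeks replicate 2 or 3 or 19 months replicate 2 or 4. Rab2a, at 71.9 ± 5.72 CPM at 3 weeks, 63.8 ± 5.69 at 5 months and 68.3 ± 2.70 at 19 months, was not called at either age.

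**Figure D4:**
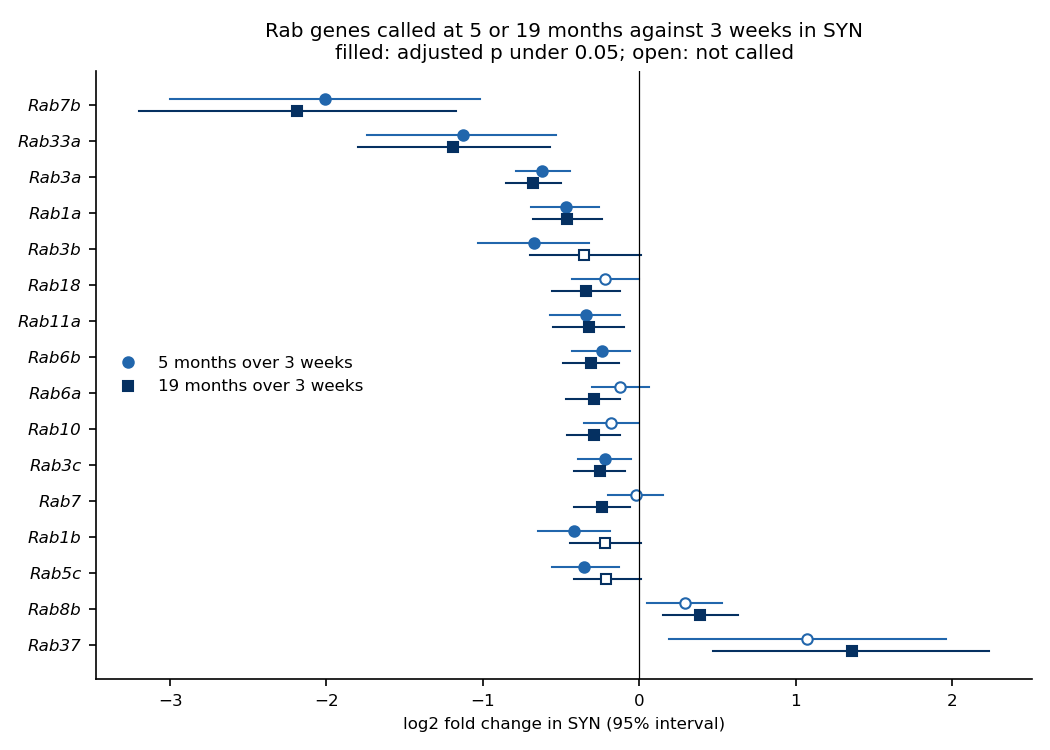
Log2 fold change in SYN of the 16 Rab genes called at 5 or 19 months against 3 weeks (x axis) with 95% intervals. Circles are 5 months over 3 weeks and squares 19 months over 3 weeks, filled where the adjusted p is under 0.05. The 10 filled circles all lie left of 0, as do 11 of the 13 filled squares.

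Of the early endosome group 1 of 6 tested genes was lower at 5 months (16.7%) and none was called at 19 months. Of the recycling group 1 of 11 was lower at 5 months (9.09%), and 2 were lower (18.2%) and 1 higher (9.09%) at 19 months. Over all genes 11.3% were lower and 13.3% higher at 5 months, and 9.44% and 10% at 19 months. Rab5c was lower at 5 months, with 53.2, 48.4, 43.9 and 44.5 CPM at 3 weeks and 40.6, 33.3, 40.3 and 32.4 CPM at 5 months (-0.35 ± 0.11, adjusted p = 0.0164). It lost its call without 5 months replicate 2 or 4 (adjusted p up to 0.0693) and, at 39.2, 41.0, 43.9 and 38.6 CPM, was not called at 19 months. Rab5a, Rab31, Rab22a and Rab21 were not called at either later age. Rab31 stood at 77.7, 55.9, 59.4 and 49.8 CPM at 3 weeks and 61.0, 49.2, 48.2 and 47.4 CPM at 19 months, and replicate 1 was the highest at both ages. Rab11a was lower at both, with 33.0, 32.4, 38.2 and 33.9 CPM at 3 weeks, 26.2, 29.8, 22.8 and 27.7 CPM at 5 months and 27.1, 27.2, 28.0 and 26.5 CPM at 19 months. The log2 fold changes were -0.34 ± 0.11 (adjusted p = 0.0213) and -0.32 ± 0.11 (adjusted p = 0.0373), and the first was lost without 3 weeks replicate 3 or 5 months replicate 3 (adjusted p up to 0.101). The second was lost in 9 of 18 settings, among them without any single library of 19 months and without 3 weeks replicate 3 or 4 (adjusted p up to 0.152). Rab10 fell from 109, 109, 109 and 99.8 CPM at 3 weeks to 83.3, 89.7, 85.7 and 86.4 CPM at 19 months (-0.29 ± 0.08, adjusted p = 0.0127). Rab8b, which acts in transport from the Golgi to the plasma membrane, rose from 24.1, 23.3, 24.1 and 27.4 CPM to 34.7, 27.5, 28.9 and 37.1 CPM (0.39 ± 0.12, adjusted p = 0.0201). It lost its call without 3 weeks replicate 2 or 3 or 19 months replicate 1 or 4 (adjusted p up to 0.104). Rab11b and Rab35 were not called at either age.

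In the late endosome group, Rab7b, a relative of Rab7 in traffic between endosomes and the Golgi, had the largest fold change at a low level. It stood at 1.80, 2.74, 4.53 and 4.43 CPM at 3 weeks, 0.312, 0.297, 1.86 and 0.833 CPM at 5 months and 0.814, 0.896, 0.365 and 0.821 CPM at 19 months. The 5 months and 3 weeks groups overlapped in 1 library each, and the log2 fold changes were -2.01 ± 0.48 (adjusted p = 0.00291) and -2.19 ± 0.50 (adjusted p = 0.00213). Rab7 itself stood at 118, 116, 127 and 128 CPM at 3 weeks, 128, 119, 114 and 112 CPM at 5 months and 99.7, 112, 95.8 and 102 CPM at 19 months. At 19 months it was lower by -0.24 ± 0.09 (adjusted p = 0.0481), and 13 of 18 settings lost that call, among them without 3 weeks replicates 2, 3 or 4 or 19 months replicates 1, 3 or 4. None of the 4 tested cilium and other Rabs was called at any age. Against 3 weeks, 24.6% of all genes were called at 5 months and 19.4% at 19 months. The calls of Rab3a, Rab1a, Rab33a and Rab7b against 3 weeks held in 18 of 18 settings at both later ages, as did those of Rab3b and Rab1b at 5 months and of Rab10 at 19 months.

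Markers of other cells moved with age as well. All 8 oligodendrocyte and myelin markers and all 8 oligodendrocyte precursor markers were lower at 5 months than at 3 weeks. Their summed levels were 7402 to 10424 CPM at 3 weeks and 2288 to 2832 at 5 months for the first list, and 622 to 781 against 321 to 365 CPM for the second. At 19 months the first list stood at 2281 to 3203 CPM. The summed astrocyte markers stood at 6758 to 9904 CPM at 3 weeks, 6552 to 7576 at 5 months and 6246 to 7819 at 19 months. Of the 6 meninges markers 3 were lower at each later age, with sums of 86.2 to 151 CPM at 3 weeks, 18.8 to 30.6 at 5 months and 28.4 to 33.6 at 19 months. Of the 8 microglia markers 3 were higher at 5 months and 4 at 19 months, with sums of 119 to 174, 168 to 191 and 196 to 304 CPM. The part of these cell types in the falls of Rab3a, Rab1a, Rab33a and the other Rabs was not tested.

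Between 5 and 19 months no Rab gene was called in either direction (edgeR, lowest adjusted p = 0.171), and DESeq2 also called 0. Over all genes 0.13% were higher and 0.169% lower, 0.3% together. At an unadjusted p under 0.05 there were 4 Rab genes (7.69%), Rab15, Rab7, Rab5a and Rab23, against 13.7% of all genes. Rab15 stood at 154, 134, 152 and 140 CPM at 5 months and 127, 120, 120 and 120 CPM at 19 months, with no overlap and a 95% interval of the log2 difference from -0.45 to -0.08. For Rab3a the 19 months libraries lay within or just below the 5 months range.

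The summed level of all Rab genes was 2384 ± 64.7 CPM in 3 weeks SYN, 2090 ± 44.3 in 5 months SYN, 2013 ± 77.5 in 19 months SYN and 1992 ± 35.4 in TH (mean ± SD over 4 libraries). In TMM-scaled CPM all 3 weeks libraries lay above those of the later ages, as they did outside the mitochondrial genome, where they had 3641 to 3915 CPM against at most 3588. Per total count the ages overlapped, with 1712 to 1957 CPM at 3 weeks, 1653 to 2043 at 5 months and 1515 to 2043 at 19 months. The comparison of SYN with TH changed direction with the denominator, and TMM-scaled CPM put SYN higher. Per total count the Rab genes had 1856 ± 166 CPM in 5 months SYN and 3125 ± 43.9 in TH, and outside the mitochondrial genome 3296 ± 99.7 and 4007 ± 115. No test is given for these sums.

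The machinery that acts on Rabs was examined through 4 lists of other genes. In SYN against TH, 24.5% of all genes were higher and 25.6% lower, with a median of -0.05. Of 7 chaperone and prenylation genes, 1 was higher and 1 was lower (14.3% each). Rabac1, a prenylated Rab acceptor, stood at 19.6 ± 2.53 CPM in SYN and 12.7 ± 2.91 in TH (log2 fold change 0.66 ± 0.17, adjusted p = 0.00431). Chm, the Rab escort protein of prenylation, stood at 21.1 ± 2.19 and 30.7 ± 5.22 CPM (-0.51 ± 0.13, adjusted p = 0.00372). None of the 7 was called between ages by edgeR. At an unadjusted p under 0.05 there were 2 (28.6%) for 5 months against 3 weeks, where 35.9% of all genes were. There were 0 for 19 against 5 months and 0 for 19 months against 3 weeks, against 13.7% and 31.4% of all genes. Over all genes, 24.6%, 0.3% and 19.4% were called in these comparisons.

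Of 50 tested Rab effectors, 15 were higher and 8 lower in SYN than in TH (30% and 16%, against 24.5% and 25.6% of all genes), with a median of 0.06. The Rab3 effectors Rims1, a scaffold of the active zone, and Rph3a, rabphilin, were both higher while Rab3a and Rab3c were lower. Rims1 stood at 722 ± 75.5 CPM in SYN and 288 ± 21.9 in TH (1.36 ± 0.09, adjusted p = 1.36e-08) and Rph3a at 423 ± 28.8 and 224 ± 13.0 (0.95 ± 0.08, adjusted p = 1.24e-07). Exph5, a Rab27 effector, was higher by 1.34 ± 0.10 (adjusted p = 6.46e-08). Among the lower effectors, Bicd1, which couples Rab6 to dynein, fell by 1.00 ± 0.08 on the log2 scale (adjusted p = 7.40e-08), and the trans-Golgi tether Gcc2 fell by 0.46 ± 0.08 (adjusted p = 1.43e-04). Myo5c, a myosin, stood at 2.41 ± 1.17 CPM in SYN and 7.86 ± 3.20 in TH.

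Of 34 tested exchange factors, 10 were higher in SYN and 9 lower (29.4% and 26.5%), near the shares over all genes. Dennd5a, a Rab6-binding DENN protein, stood at 263 ± 23.5 and 124 ± 1.43 CPM (1.12 ± 0.08, adjusted p = 2.18e-08), and Dennd1b, an exchange factor for Rab35, at 75.3 ± 6.67 and 37.3 ± 2.47 CPM (1.05 ± 0.09, adjusted p = 2.00e-07). Sbf1, a myotubularin relative with a DENN domain, was higher by 0.79 ± 0.08. Dennd6b at -1.28 ± 0.16, Ric1, part of the Rab6 exchange factor, at -0.93 ± 0.12 and Hps1, part of the exchange factor for Rab32 and Rab38, at -1.70 ± 0.25 were lower. Of 35 tested GTPase-activating proteins, 9 were higher and 7 lower (25.7% and 20%, against 24.5% and 25.6% of all genes). Tbc1d9b, at 241 ± 19.5 CPM in SYN and 85.8 ± 3.33 in TH, was higher by 1.52 ± 0.08 (adjusted p = 1.59e-09), followed by Sgsm2 at 1.39 ± 0.09 and Tbc1d16 at 1.66 ± 0.13. Rab3gap2, a subunit of the complex that inactivates Rab3, was lower by -0.48 ± 0.09 (adjusted p = 4.07e-04), and so were Tbc1d15, which acts on Rab7, by -0.68 ± 0.15 and Sgsm3 by -0.91 ± 0.26.

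Between 3 weeks and 5 months, 14 effectors were higher and 1 lower of 50 (28% and 2%), with a median of 0.16, against 13.3% and 11.3% of all genes. Kif16b, a kinesin of early endosomes, stood at 20.1 ± 1.63 CPM at 3 weeks and 34.5 ± 4.09 at 5 months (0.81 ± 0.12, adjusted p = 1.06e-05). Appl2, a Rab5 effector, rose by 0.59 ± 0.11, and Mlph, a Rab27 effector, rose from 0.668 ± 0.381 to 3.26 ± 0.756 CPM. Bicd1 fell by 0.36 ± 0.11. Rims1 and Rph3a were not called at 5 months. At 19 months against 3 weeks, 5 effectors were higher and 7 lower (10% and 14%, against 10% and 9.44% of all genes), and Rims1, at 832 ± 207 CPM at 3 weeks and 574 ± 14.4 at 19 months, was lower (-0.52 ± 0.12, adjusted p = 0.00235).

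Against 3 weeks, 13.3% of all genes were higher and 11.3% lower at 5 months, and 10% and 9.44% at 19 months. Of 33 tested exchange factors, 6 were higher and 3 lower at 5 months (18.2% and 9.09%), and 6 were higher and none lower at 19 months. Dennd1b rose from 36.3 ± 5.58 CPM at 3 weeks to 75.3 ± 6.67 at 5 months (1.08 ± 0.11, adjusted p = 3.13e-08) and stood at 79.0 ± 6.88 at 19 months. Dennd1a, also a Rab35 exchange factor, rose by 0.56 ± 0.10 at 5 months, and Dennd4b by 0.54 ± 0.12. Of 35 GTPase-activating proteins, 7 were higher and 3 lower at 5 months (20% and 8.57%), and 3 were higher and 2 lower at 19 months (8.57% and 5.71%). Usp6nl, which inactivates Rab5, fell from 32.0 ± 4.97 CPM at 3 weeks to 18.3 ± 1.55 at 5 months and 18.6 ± 0.90 at 19 months (log2 fold changes -0.78 ± 0.13 and -0.77 ± 0.13). No gene of the 4 lists was called between 5 and 19 months by edgeR, while 22 of the 50 effectors (44%) had an unadjusted p under 0.05 there, against 13.7% of all genes, and a median of -0.17.

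Sequence features tracked the SYN against TH fold change loosely. Over the 52 tested genes, Pearson's r with coding length was -0.42 (Spearman's rho -0.41), with 3′ UTR length 0.16 (rho 0.27) and with coding GC content -0.13 (rho -0.16). These are across genes of the same libraries and carry no test. By carboxyl end, the median log2 fold change was 0.18 for the 15 tested genes with adjacent terminal cysteines, -0.20 for the 18 ending in cysteine, residue, cysteine, -0.06 for the 11 with adjacent cysteines before further residues and 0.03 for the 8 with a single cysteine. Each of the first 3 classes held genes called in both directions. In the first, Rab31, Rab22a, Rab10 and Rab35 were higher in SYN and Rab36 and Rab2a lower. In the second, Rab15, Rab6b and Rab7 were higher and Rab3a, Rab3c, Rab6a and Rab14 lower.

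Some counts may be shared with other genes. In the exon coordinates deposited with the counts, the exons of 18 Rab genes overlap those of another gene. In 7 the overlap covers over 10% of the exon bases. For Rab43 it is 75.4% and for Rab4b 65%, both with a gene on the same strand, for Rab2b 59.3%, and for Rab6a 19%, with Mrpl48 on the opposite strand at 9.90 CPM on average. For Rab10 it is 4.02%, with an antisense gene at 6.6 CPM. The library kit marks strand, but the strand setting of the counting is not given in the sources used here, so levels of Rab43, Rab4b and Rab2b are uncertain.

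Splicing of Rab genes was read from the authors' deposited tables, which compare the ages of SYN. In the authors' deposited LeafCutter tables, 9 intron clusters in 7 Rab genes (Rab3a, Rab5a, Rab6a, Rab7, Rab10, Rab22a and Rab28) were tested, and none had an adjusted p under 0.05 in any of the 3 comparisons, against 6.61%, 0.768% and 4.81% of all clusters. In the authors' deposited table for 19 against 5 months, Rab5a had the lowest value, an adjusted p of 0.0753. There the usage of the intron chr17:53479609-53483820 (GRCm38), within the Rab5a gene, was 0.59 at 5 months and 0.738 at 19 months. In the authors' deposited table for 5 months against 3 weeks, the Rab7 intron chr6:88013699-88045072 had a usage of 0.838 at 3 weeks and 0.955 at 5 months (adjusted p = 0.0965). Rab28 had the largest shift in that deposited table, 0.582 to 0.332 for the intron chr5:41625863-41633172, with an adjusted p of 0.299. In the authors' deposited DIEGO table for the same ages, 2 of 200 junctions in Rab genes had a q-value under 0.05, both 0.0464, against 1.48% of all junctions. They were chr12:3252611-3264749 in Rab10 and chr4:8577954-8582493 in Rab2a, with abundance changes of -1.35 and -1.31 on a scale whose sign and base are not given. The Rab10 junction was marked there for zero replacement, and the Rab2a junction was not. At a q-value under 0.05, the authors' deposited DIEGO table for 19 against 5 months called 0 of 194 junctions in Rab genes. Over all genes that deposited table called 0 of 89750 junctions. The authors' deposited table for 19 months against 3 weeks called 0 of 196 in Rab genes, against 0.69% of all junctions.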

How the data were processed

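The deposited table held whole-number counts per gene made by the authors with featureCounts of Subread on GRCm38.p6 after bcl2fastq 2.20.0.422, cutadapt 1.18 and Trimmomatic 0.38, per the submitters' processing notes. Which aligner, strand setting and annotation release they used is not given in the sources used here. Of these counts 16 columns were used and 0 belonged to no sample. The authors' deposited LeafCutter tables give adjusted p-values for intron clusters and the usage of each intron as a fraction, and their deposited DIEGO tables give q-values and an abundance change score per junction, per the file headers.

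Low counts were removed by filterByExpr on the groups. After TMM scaling, genes were tested by the robust quasi-likelihood F test of edgeR 4.0.16 in R 4.3.3, with Benjamini-Hochberg adjustment over all genes tested, SYN against TH on 8 libraries and ages on the 12 SYN libraries. The SE is the log2 fold change divided by the root of F. CPM in the text use TMM over all 16 libraries, and CPM per kb divide by the deposited exon length. A single ratio was compared by exact permutation over 70 groupings. Marker and list sums took the higher-count row of a repeated symbol. Coding sequences came from GENCODE vM21. With 4 libraries per group, p-values set each difference against the spread between these replicates. In the edgeR fits that spread is estimated with the help of other genes, and for the ages over all 12 SYN libraries. The main fits had no replicate block.

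The members, compartments, gene lists and tests were chosen with earlier results of these data known. For SYN against TH, libraries' values were given for Rab3a to Rab3d, Rab27b, Rab5a, Rab7, Rab11b, Rab2a, Rab6b, Rab8b, Rab10, Rab26 and Rab35. Between ages Rab2a was given as mean ± SD, and Rab5a, Rab11b, Rab26 and Rab35 without a full set of library values. Libraries' values were also given for the 5 highest and 5 lowest called members with a mean of at least 5 CPM per comparison. Up to 3 genes per direction of each list, picked by adjusted p, were given as mean ± SD or log2 fold change. Other members given by library, Rab4b, Rab6a, Rab7b, Rab13, Rab14, Rab21, Rab33a, Rab34 and Rab37, were picked after their values were seen. Alternatives were DESeq2 1.42.0 (size factors and Wald test), upper-quartile scaling, mitochondrial genes removed, no filter, 1 CPM in 4 libraries, a replicate block, other sets of libraries in the fit, a fold of 1.5 and each library left out.

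Columns of SYN and TH at 5 months share preparation numbers, and pairing them is an inference. After removing group means, same-numbered libraries correlated at 0.156, 0.035, 0.0473 and 0.197, and differently numbered ones at -0.139 to 0.102. In the labels, ages share only replicate numbers. Same-numbered libraries of 5 months and 3 weeks SYN correlated at 0.152, 0.0664, 0.0258 and -0.0274. Those of 19 months and 3 weeks correlated at 0.223, 0.00293, 0.0234 and 0.089. Differently numbered ones ran from -0.122 to 0.0852 and from -0.252 to 0.106. Replicate 1 had the highest mitochondrial rRNA share at each SYN age (51.7%, 45.3% and 52.3%). In each of 3 simulations per fit, 200 genes were changed. On 17374 genes the SYN against TH fit recovered 14.3% of those changed by 0.5 and 50.7% of those changed by 1 (log2 scale). False calls averaged 5.67. On 15344 genes the 5 months against 3 weeks fit recovered 24.3% and 67%, with 7.33 false calls. The real comparisons called 50.1% and 24.6% of genes, a far larger part, so these shares do not give the recovery in the data. No 2 libraries of the same group were copies of each other, and libraries of different groups were not compared in this way. No protein sequences were used here, and gene sequences on chromosome 18 are not shown. A gene of the chaperone and prenylation list is not reported here and was left out of its counts.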

Additional observations from a re-analysis of the deposited data

Results flagged for a closer look

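For each Rab gene with enough counts, the highest or lowest library of each group was compared with the spread of the other 3 by Dixon's gap test at the 95% level. This flagged 10 of 164 groups over 41 genes, where chance flags about 5%. In 3 weeks SYN replicate 4, Rab35 stood at 30.9 CPM against 25.6 to 26.5 in the others, Rab26 at 12.5 against 7.92 to 8.56, and Rab10 at 99.8 against 109 in each. In 3 weeks SYN replicate 3, Rab24 stood at 12.4 CPM against 8.63 to 9.14. In 5 months SYN replicate 1, Rab6b stood at 390 CPM against 361 to 362, and in 5 months TH replicate 2 Rab5c stood at 19.6 against 25.2 to 25.6. In 19 months SYN, Rab31 at 61.0 CPM (others 47.4 to 49.2) and Rab15 at 127 (others 120) were highest in replicate 1, which also had the highest share of mitochondrial rRNA of its group. Rab9b was highest in replicate 3, at 9.13 CPM against 7.87 to 8.03, and Rab3a lowest in replicate 4, at 95.9 against 109 to 110.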

How the results depend on the processing

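No called Rab gene changed direction under the alternatives run, and the counts of calls moved as follows. With a fold of at least 1.5, 6 higher and 2 lower remained for SYN against TH, 4 lower for 5 months against 3 weeks, and 1 higher and 3 lower for 19 months against 3 weeks. Upper-quartile scaling gave 15 lower for SYN against TH, and fitting all 16 libraries gave 1 higher for 5 months against 3 weeks. For 5 months against 3 weeks, leaving out 1 library gave 7 to 10 lower (7 without 3 weeks replicate 3 or 5 months replicate 2). Leaving out libraries gave 5 to 12 lower for SYN against TH (5 without SYN replicate 2 or TH replicate 2), 0 to 2 higher for 5 months against 3 weeks (2 without 3 weeks replicate 1, 1 without 3 weeks replicate 4 or 5 months replicate 1), and 0 to 2 higher and 6 to 11 lower for 19 months against 3 weeks (0 higher without 3 weeks replicate 3 or 19 months replicate 4, 1 without 3 weeks replicate 2 or 4 or 19 months replicate 1 or 2, 6 lower without 19 months replicate 2, 7 without 3 weeks replicate 3 or 19 months replicate 3 or 4). The log2 difference of the summed Rab level, SYN against TH, was 0.07 in TMM-scaled CPM, so it changed sign to -0.75 per total count and -0.28 per count outside the mitochondrial genome. Per total count it was 0.01 for 5 months against 3 weeks and 0.03 both for 19 against 5 months and for 19 months against 3 weeks, and outside the mitochondrial genome -0.01 for 19 against 5 months. At a q-value under 0.01, 0 DIEGO junctions in Rab genes were left.

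With a replicate block there were 11 higher and 9 lower for SYN against TH, of which Rab27b was gained and Rab26 lost, 0 and 12 for 5 months against 3 weeks (Rab11b and Rab31 gained), 0 and 0 for 19 against 5 months, and 2 and 11 for 19 months against 3 weeks. The block changed no other call. Over all genes the count for 19 against 5 months was 20 higher and 26 lower, and it was 142 and 150 without a filter, 124 and 140 with the block, 132 and 188 on the 8 libraries compared, 106 and 200 with DESeq2, 14 and 14 with all 16 libraries, and 2 and 3 without both libraries that stand apart. Without single libraries it ran from 0 and 0 (19 months replicate 3) to 60 and 64 (5 months replicate 2). No Rab gene was called in any of these. The cause of these changes was not tested. Genes under about 5 CPM rest on few counts.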
